A study of Homo sapiens with 4 samples.

Results

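The 10 genes described here are the immediate early transcription factor genes FOS, FOSB, FOSL2, JUN, JUNB, JUND, EGR1 and EGR2, together with the immediate early genes IER2 and IER3. They were picked out of the table by gene symbol, and they are 10 of the 23622 genes in the deposited expression table. The series compares MV4-11 cells, which are from a human acute leukemia of the myeloid lineage with monocytic features, by RNA sequencing. The control group (sh-NC, 2 libraries) is labelled as MV4-11 of WT genotype with treatment none, while the study's methods and the column names give it a control hairpin. The other group (sh-IRF1, 2 libraries) is labelled as WT genotype with IRF1 knockdown. Per the study's methods, hairpins in the pLKO.1 vector were delivered by lentivirus and infected cells were collected after 3 days of puromycin selection. Both groups are populations of 1 cell line, the sources used here do not say which hairpin each sh-IRF1 library carries, and the labels do not say whether the libraries of a group came from separate cultures, so the p-values measure only the spread between these libraries.

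Immediate early genes are transcribed within minutes of a growth factor, cytokine or stress signal, without the need for new protein synthesis. FOS family proteins pair with JUN family proteins to form AP-1, a dimer that binds short DNA sites in the promoters of genes for proliferation, adhesion, inflammation and matrix remodelling. FOS proteins cannot pair with each other, whereas JUN proteins can. JUN is a strong activator and takes part in its own transcription, while JUNB and JUND are weaker activators and can oppose it. EGR proteins are zinc finger factors that bind GC-rich sites, favour monocyte and macrophage maturation in myeloid cells, and are held back by the corepressors NAB1 and NAB2. The transcripts of this group are short-lived, and many of their promoters are driven by serum response factor bound to a CArG box and by CREB or ATF proteins bound to cyclic AMP response elements.

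The values are normalized counts, the reads of each gene divided by a size factor of its library. The libraries held between 17635908 and 18695337 reads. Fold changes are sh-IRF1 against sh-NC on log2(normalized count + 1), given with their standard error (SE) where it matters, tested with limma over the 14120 genes that reached a value of 10 in 2 or more libraries, and a gene is named higher or lower where its Benjamini-Hochberg adjusted p over all of those genes was under 0.05. For a single gene, the smallest p that an exact permutation test (two-sided) allows with this design is 0.33, so the calls depend on limma's pooling of the spread over genes. The targeted gene IRF1 (ENSG00000125347) had normalized counts of 785 and 738 in sh-NC and of 430 and 432 in sh-IRF1, 56.6% of the control level (adjusted p = 1.69e-10 from limma). All 11 markers of a myeloid line were in the table, which by itself does not show that a gene is expressed. The myeloid identity of the line was visible in well expressed markers, such as CD33 between 1125 and 1190.4 and SPI1 between 5472 and 6376. Not all of the 11 were at such levels. CD68 had only 5 and 10 reads for sh-NC and 11 and 27 for sh-IRF1, and other annotated genes share 85.6% of its exonic bases. Of these 11 markers 3 were higher, 4 were lower and 4 were not called. LYZ, the lysozyme gene, was at 179.9% of the control level, ITGAM, an integrin of mature myeloid cells, at 154% and SPI1 at 113%, while FLT3, a receptor of progenitors, was at 72.9%, CSF1R, the receptor of a macrophage growth factor, at 87.8% and MPO, a granule enzyme, at 37.3%. The calls of ITGAM and CSF1R were lost when single libraries were left out, with limma adjusted p-values of up to 0.0882 and 0.209. CD14, a monocyte marker, was low and fell, with 42.1 or less in sh-NC and 10.9 and 1.87 in sh-IRF1. The summed level of the 11 was 29152 to 29218 in sh-NC and 26186 to 26230.4 in sh-IRF1. Of 14 markers of other cell types 5 were in the table, with a summed level of 1393 to 1630.0 in sh-NC and 3354 to 3434 in sh-IRF1. Most of that sum was PECAM1, at 1159 and 1399 in sh-NC and at 3178 and 3120.1 in sh-IRF1. With such levels already in the control libraries, PECAM1 did not serve here as a marker of other cell types. Without PECAM1 the sum was 231 to 234 in sh-NC and 234 to 256 in sh-IRF1. ALB and COL1A1 had values of at most 4.97 in any library. The part of these shifts in the results below was not tested.

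The promoters of 4 of the genes are shown because each carries a kind of site through which immediate early genes are usually described. Another reason is that JUN and FOSB were higher, EGR1 lower and FOS without a call in the same libraries. The sequences are from RefSeq on GRCh38.p14, read on the strand of the gene, and end at the base before the gene's start in the annotation. Capitals mark a CArG box, the core of a cyclic AMP response element (TGACG, or CGTCA on the other strand), the variant AP-1 site of the JUN promoter (TGACATCA) or an EGR site (GCGNGGGCG).
EGR1, chr5:138465229-138465478, plus strand: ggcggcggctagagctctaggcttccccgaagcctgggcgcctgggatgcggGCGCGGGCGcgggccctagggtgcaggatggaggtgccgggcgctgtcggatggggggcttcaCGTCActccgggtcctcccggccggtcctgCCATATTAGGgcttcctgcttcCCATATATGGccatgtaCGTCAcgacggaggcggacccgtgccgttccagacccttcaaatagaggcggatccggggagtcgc
JUN, chr1:58784049-58784297, minus strand: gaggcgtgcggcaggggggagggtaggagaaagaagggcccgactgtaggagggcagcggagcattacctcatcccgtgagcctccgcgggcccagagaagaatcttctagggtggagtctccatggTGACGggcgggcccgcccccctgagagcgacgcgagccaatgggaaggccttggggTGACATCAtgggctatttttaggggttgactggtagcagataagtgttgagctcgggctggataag
FOSB, chr19:45467746-45467994, plus strand: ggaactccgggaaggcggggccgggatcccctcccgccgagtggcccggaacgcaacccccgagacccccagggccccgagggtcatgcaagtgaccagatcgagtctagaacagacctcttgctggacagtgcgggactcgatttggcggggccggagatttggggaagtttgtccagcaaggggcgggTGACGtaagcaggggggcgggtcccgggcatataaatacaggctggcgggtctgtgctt
FOS, chr14:75278578-75278825, plus strand: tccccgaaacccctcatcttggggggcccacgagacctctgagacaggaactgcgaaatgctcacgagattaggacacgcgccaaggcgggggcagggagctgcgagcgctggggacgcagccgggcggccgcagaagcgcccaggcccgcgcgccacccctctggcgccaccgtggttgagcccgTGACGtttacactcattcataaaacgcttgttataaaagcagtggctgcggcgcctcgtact

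The EGR1 window held 2 CArG boxes, from -105 to -96 and from -83 to -74 relative to the RefSeq start site, and an EGR site from -198 to -190. In the JUN window the variant AP-1 site lay from -67 to -60. Both FOS and FOSB had a cyclic AMP response element core, from -64 to -60 in FOS and from -60 to -56 in FOSB. Windows of 250 bases before the start site were available for 9 of the 10 genes, all but IER3, and were searched on both strands. The 9 genes had 11 windows between them, and TGACG was in 9 of these 11, compared with 21.2% of all 35116 windows, which includes matches inside the full element TGACGTCA. Each of the 9 genes had it in a window. The full element was found in the JUND window and in 1.65% of all windows. A CArG box was found for EGR1 and EGR2 and in 1.16% of all windows, the EGR site for EGR1 alone and in 8.41%, and TGACATCA for JUN alone and in 2.37%. The consensus AP-1 site TGANTCA, present in 6.57% of all windows, was in none of the 9. Neither was the interferon response motif (GAAA, then any 2 bases, then GAAA again), present in 3.02%. These absences say only that the letters are not in these windows. The same holds where no CArG box was found, as for FOS, since bases farther upstream than 250 were not searched. JUN and EGR1 therefore both carry cyclic AMP response element cores, and a core was also present in the windows of genes that were higher, lower and not called.

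Knockdown of IRF1 was accompanied by changes in opposite directions within the FOS family, with FOSB higher and FOSL2 lower. In the JUN family JUN and JUND were higher, while JUNB was lower by a log2 change of only -0.21. Without sh-NC replicate 1 the changes of JUNB and JUND were -0.11 and 0.06. JUN, at 393% of the control level, and FOSB, at 190.2%, were the genes with the largest increases of the 10, and EGR1, at 42.9%, had the largest decrease. FOS itself, the founding member of the FOS family, did not pass the test. In all, 3 of the 10 genes were higher (JUN, FOSB and JUND), 4 were lower (EGR1, IER2, FOSL2 and JUNB) and 3 were not called (FOS, EGR2 and IER3). All 10 passed the filter on low values, and each had a normalized count of at least 10 in all 4 libraries. Over all genes tested 42.2% were called, 20.3% higher and 21.9% lower, so a call by itself was common in this comparison. In bulk RNA of this kind, fewer cells with a transcript and less of it per cell cannot be told apart. With a log2 fold change beyond 0.5 also required, JUN and FOSB were higher and EGR1 and IER2 lower. The background was 15.8% of genes called, 8.27% higher and 7.56% lower. IER2, at -0.52, was close to that limit, and leaving out any 1 library gave values from -0.56 to -0.48. The values of the groups did not overlap for 8 of the 10 genes, 4 in each direction, and for 69.2% of all genes tested, 34.2% higher and 35% lower. The median log2 fold change of the 10 genes was -0.05 and that of all genes tested was -0.0019.

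**Figure D1:**
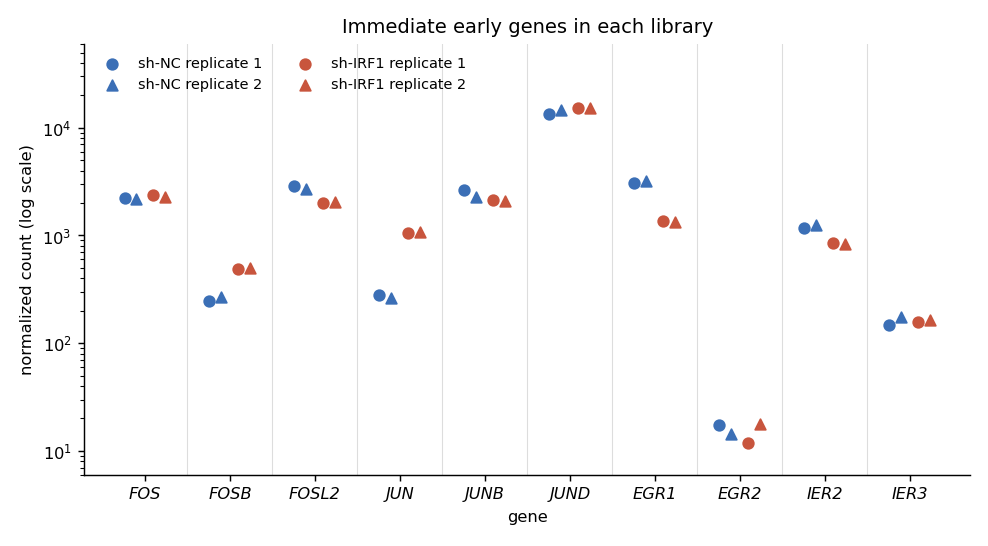
Normalized count (log axis) of each of the 10 genes in the 4 libraries, with circles for replicate 1 and triangles for replicate 2, blue for sh-NC and red for sh-IRF1. The pairs of JUN, FOSB and EGR1 stand clearly apart between the groups, those of EGR2 and IER3 overlap, and levels should be compared within a gene because gene length is not taken into account.

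Among the FOS family genes, FOSB was higher, FOSL2 was lower and FOS was not called. FOS (ENSG00000170345, chromosome 14, 75278826 to 75282230 in GENCODE 44 on GRCh38) encodes c-Fos, the prototype partner of JUN. Its normalized counts were 2241 and 2203 in sh-NC and 2363 and 2272 in sh-IRF1. Both sh-IRF1 libraries were above both sh-NC libraries, but by less than the test could separate from the spread, with a log2 fold change of 0.06 (95% interval -0.04 to 0.16, adjusted p = 0.335 from limma). FOS transcripts thus lay within a narrow range of levels in all 4 libraries. FOSB (ENSG00000125740, chromosome 19, 45467995 to 45475179) encodes a close relative whose truncated splice form accumulates under repeated stimulation, and counts per gene do not tell its splice forms apart. FOSB had normalized counts of 248 and 271 in sh-NC and of 488 and 499 in sh-IRF1. The groups were far apart compared with the spread within them, at a log2 change of 0.93 (SE 0.114) and a limma adjusted p of 2.84e-09, and 8.35% of all genes tested had a larger change in either direction.

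FOSL2 (ENSG00000075426, chromosome 2, 28392448 to 28417317), which encodes Fra-2, a FOS protein without a strong activation domain, went the other way. Its normalized counts were 2890 and 2730.1 in sh-NC and 2008 and 2051 in sh-IRF1, which is 72.2% of the control mean. At -0.47 (SE 0.0481, limma adjusted p = 2.29e-11) its log2 change was just inside the 0.5 limit, and leaving out any 1 library gave values from -0.51 to -0.43. FOSL1, which encodes Fra-1 and is not among the 10 genes, was measured at 408 and 457 in sh-NC and at 355 and 395 in sh-IRF1. These groups did not overlap but the gene was not called, at a log2 fold change of -0.20 (95% interval -0.42 to 0.02, adjusted p = 0.13 from limma). The difference between the changes of FOSB and FOSL2 is carried by different genes in the same libraries and was not tested as such.

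Among the JUN family genes, JUN showed the largest change of all 10 genes and JUND and JUNB much smaller ones. JUN (ENSG00000177606, chromosome 1, 58776845 to 58784048, minus strand) encodes c-Jun. It had normalized counts of 282 and 262 in sh-NC and of 1053 and 1082 in sh-IRF1. JUN was 3.93-fold higher after IRF1 knockdown, at a log2 change of 1.97 (SE 0.0934, 95% interval 1.78 to 2.16) and a limma adjusted p of 1.08e-22. Only 1.06% of the genes tested had a larger change in either direction. Leaving out any 1 library gave log2 changes of JUN from 1.92 to 2.02.

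JUNB (ENSG00000171223, chromosome 19, 12791486 to 12793315) encodes a JUN protein that can restrain JUN in proliferating cells. Its normalized counts were 2628 and 2279 in sh-NC and 2141 and 2095 in sh-IRF1. The 2 control libraries differed from each other by more than the lower of them differed from either sh-IRF1 library. The log2 change was -0.21 (SE 0.0528, limma adjusted p = 0.00111), and without sh-NC replicate 1 it was -0.11 with a limma adjusted p of 0.15. In GENCODE 44, 14.2% of its exonic bases are shared with HOOK2 on the other strand, and whether reads were counted by strand is not given in the sources used here. JUND (ENSG00000130522, chromosome 19, 18279694 to 18281622, minus strand) encodes the JUN protein that is present in most resting cells and is the least inducible of the family. Its normalized counts were 13439 and 14644 in sh-NC and 15324 and 15291 in sh-IRF1, a log2 change of 0.13 (SE 0.0298) and a limma adjusted p of 0.000516. As for JUNB, this call was lost without sh-NC replicate 1, at a log2 fold change of 0.06 and an adjusted p of 0.0721 from limma. The sh-NC libraries of JUND lay farther apart than the nearer of them lay from the sh-IRF1 pair.

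**Figure D2:**
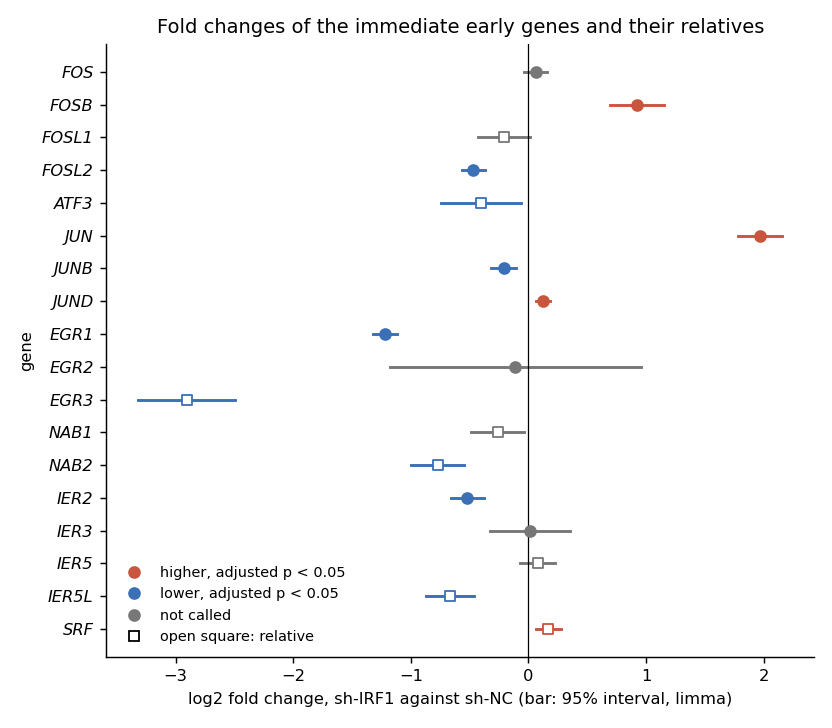
Log2 fold change (x axis) of the 10 genes (filled circles) and of their relatives (open squares), sh-IRF1 against sh-NC, with 95% intervals from limma as bars, red for higher, blue for lower and grey for genes that were not called. JUN at 1.97 and EGR3 at -2.90 are at the ends of the scale, and the interval of EGR2, from -1.18 to 0.96, is the widest.

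EGR1 was lower, as were its relative EGR3 and the corepressor gene NAB2, while EGR2 had few reads and was not called. EGR1 (ENSG00000120738, chromosome 5, 138465479 to 138469303) encodes the zinc finger factor that is induced early in monocytic maturation. It had normalized counts of 3080.4 and 3174 in sh-NC and of 1355 and 1329 in sh-IRF1. The replicates of each group were close together, and sh-IRF1 was at 42.9% of the control mean, with a log2 change of -1.22 (SE 0.0505, 95% interval -1.32 to -1.12) and a limma adjusted p of 6.7e-25. A larger change in either direction was seen for 4.51% of the genes tested. Leaving out any 1 library gave log2 changes of EGR1 from -1.24 to -1.20. EGR2 (ENSG00000122877, chromosome 10, 62811996 to 62819167, minus strand), which encodes Krox-20, had 17 and 14 reads in sh-NC and 12 and 19 reads in sh-IRF1. Its normalized counts of 17.4, 14.4, 11.9 and 17.8 overlapped between the groups. The log2 fold change of -0.11 had a 95% interval from -1.18 to 0.96 (adjusted p = 0.889 from limma), which holds a rise of the size of FOSB's and reaches almost to the fall of EGR1, so a difference was not detectable at this depth.

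EGR3, a relative of EGR1 that is often induced after it, had normalized counts of 305 and 278 in sh-NC and of 36.8 and 39.4 in sh-IRF1. EGR3 was thereby at 13.1% of the control level (log2 fold change -2.90, standard error 0.204, adjusted p = 1.65e-16 from limma). NAB2, the EGR corepressor that is itself an EGR target, had normalized counts of 492 and 464 in sh-NC and of 276 and 284 in sh-IRF1, and its log2 change was -0.77 (limma adjusted p = 1.47e-07). The related corepressor gene NAB1 had 412 and 391 in sh-NC and 330.2 and 339 in sh-IRF1, which did not pass the test (log2 fold change -0.26, adjusted p = 0.0546 from limma). WT1, whose zinc fingers resemble those of the EGR proteins, was called lower at a log2 change of -0.17 (limma adjusted p = 0.0418), but the call was lost without sh-NC replicate 1, at a limma adjusted p of 0.209, and without sh-IRF1 replicate 1 or 2, at 0.119 and 0.157. EGR4 was not in the table used here.

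IER2 was lower and IER3 showed no detectable difference. IER2 (ENSG00000160888, chromosome 19, 13150411 to 13154911) encodes a nuclear regulator of transcription that is induced by growth factors. Its normalized counts were 1175 and 1243 in sh-NC and 849 and 835 in sh-IRF1. Both knockdown libraries were below both controls, and 69.7% of the control level remained (log2 fold change -0.52, standard error 0.0691, adjusted p = 1.9e-08 from limma). Other annotated genes on the opposite strand share 52.2% of the exonic bases of IER2, so part of its reads could belong to them. IER3 (ENSG00000137331, chromosome 6, 30743199 to 30744548, minus strand) encodes a stress-inducible protein that modulates cell survival. IER3 had normalized counts of 148 and 175 in sh-NC and of 158 and 166 in sh-IRF1, with both sh-IRF1 values between the control values. Its log2 fold change was 0.01 (95% interval -0.33 to 0.35, adjusted p = 0.963 from limma). HCG20 and IER3-AS1 on the other strand overlap 38.9% of its exonic bases. Of the relatives, IER5 was not called (log2 fold change 0.08, adjusted p = 0.416 from limma). IER5L was lower, from 549.8 and 557 to 347 and 349 (log2 change -0.67, limma adjusted p = 4.3e-07), and IER5L-AS1 overlaps 41.8% of its exonic bases.

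**Figure D3:**
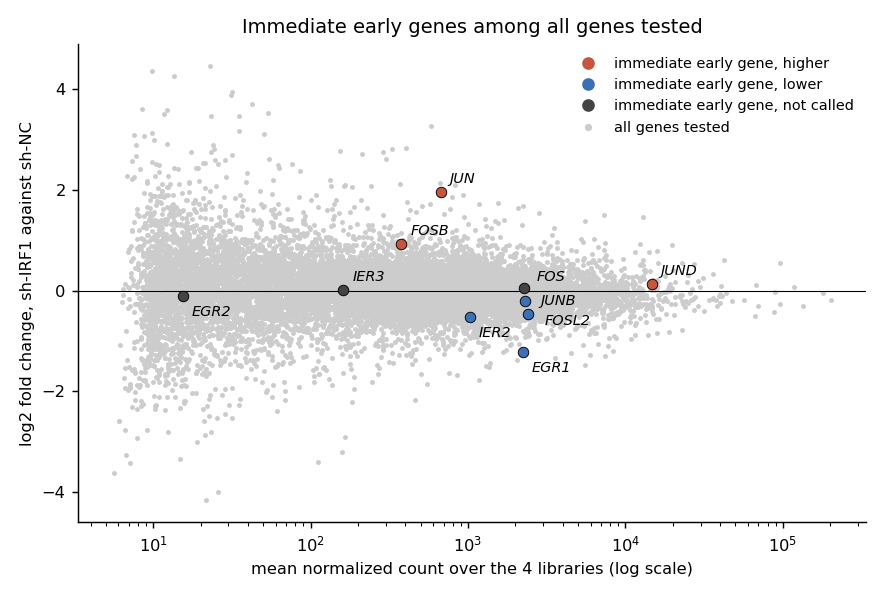
Log2 fold change, sh-IRF1 against sh-NC (y axis), against the mean normalized count of the 4 libraries (x axis, log scale) for the 14120 genes tested (grey) and the 10 immediate early genes (large points, red for higher, blue for lower, black for not called). JUN, FOSB and EGR1 lie toward the edges of the cloud at their level, JUND, JUNB and FOS lie inside it, and EGR2 sits where the cloud is widest.

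Replicate libraries were close to each other for most of the 10 genes in sh-IRF1 and for fewer of them in sh-NC. Transcripts of this kind can change quickly while cells are handled. In sh-NC the absolute log2 difference between replicates was 0.0248 for FOS, 0.043 for EGR1 and 0.107 for JUN, against a median of 0.109 over all genes tested. The wider sh-NC pairs were those of FOSB at 0.127, JUND at 0.124, JUNB at 0.205, IER3 at 0.24 and EGR2 at 0.262. In sh-IRF1 the difference was under the median of 0.102 for 9 of the 10 genes, from 0.00312 for JUND to 0.068 for IER3, and 0.539 for EGR2. Both medians are over tested genes of all levels and were not matched to the level of each gene. For each of JUN, FOSB, EGR1, FOSL2 and IER2, the difference between the groups was larger than the differences between replicates of the same gene.

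Divided by exon length, the 10 genes spanned a wide range of levels, with JUND at the top and EGR2 at the bottom in both groups. The level of JUND was 7279 ± 442 normalized counts per kilobase of exon (SD, n = 2) in sh-NC and 7936 ± 12.1 in sh-IRF1. JUNB was next, at 1341 ± 135 in sh-NC and 1157 ± 17.6 in sh-IRF1. EGR1 moved from place 3, at 997 ± 21.0, to place 4, at 428 ± 5.90, and FOS from place 4, at 698 ± 8.48, to place 3, at 727 ± 20.3. JUN moved most, from place 8 at 75.1 ± 3.94 to place 5 at 295 ± 5.62. In sh-NC the levels per kilobase of IER2, 393 ± 15.7, and FOSL2, 392 ± 15.8, did not differ beyond their spread. In sh-IRF1 JUN, FOSL2 at 283 ± 4.22 and IER2 at 274 ± 3.36 were neighbours, and their libraries did not overlap. IER3, at 119 ± 14.1 and 120 ± 4.03, lay above FOSB, at 46.8 ± 2.92 and 88.9 ± 1.40, in both groups. These places depend on the length used. With the length of the canonical transcript alone FOS was above EGR1 in both groups, at 1056 against 997 in sh-NC, and IER2 was above JUN in sh-IRF1, at 399 against 328.

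The shares of JUN and FOSB were larger and those of JUNB and FOSL2 smaller in sh-IRF1, while the summed levels of the FOS and JUN families moved less than that of the EGR family. Over FOS, FOSB, FOSL1 and FOSL2 the sum was 1366 ± 3.03 normalized counts per kilobase in sh-NC and 1299 ± 0.459 in sh-IRF1. Within it the share of FOSB went from 3.42% ± 0.221 to 6.85% ± 0.105, that of FOSL2 from 28.7% ± 1.09 to 21.8% ± 0.317, and that of FOS from 51.1% ± 0.507 to 56.0% ± 1.58 (SD, n = 2 each). FOS thereby gained share without a call of its own, in a sum that was smaller. Over JUN, JUNB and JUND the sum was 8695 ± 303 in sh-NC and 9388 ± 24.1 in sh-IRF1. The share of JUN in it went from 0.865% ± 0.0754 to 3.14% ± 0.0679, that of JUNB from 15.5% ± 2.09 to 12.3% ± 0.156, and that of JUND from 83.7% ± 2.16 to 84.5% ± 0.0879 (SD, n = 2 each). JUN messenger thus remained a small share of the family in spite of its fold change. The summed level of EGR1, EGR2 and EGR3 was 1059 ± 16.8 in sh-NC and 439 ± 4.42 in sh-IRF1, of which EGR1 was 94.1% ± 0.497 and 97.4% ± 0.363. Shares of messenger say nothing of protein, since AP-1 and EGR proteins are regulated by phosphorylation and degradation as well.

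**Figure D4:**
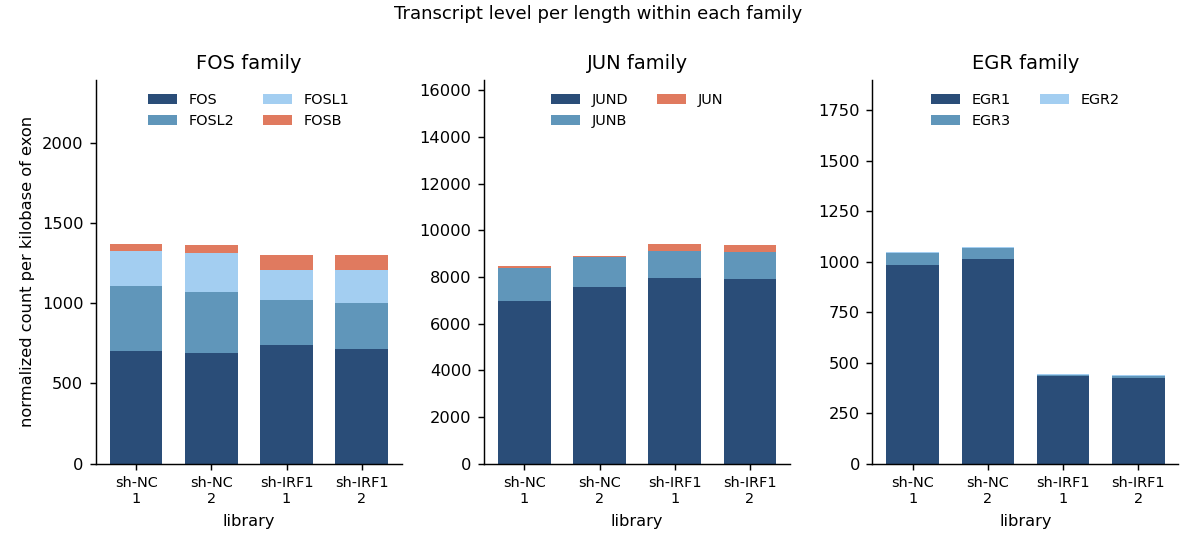
Normalized count per kilobase of exon (y axis, linear from 0) for the members of the FOS, JUN and EGR families, stacked within each of the 4 libraries. The FOS stacks are similar in height with more FOSB and less FOSL2 in sh-IRF1, JUND fills most of the JUN stacks, and the EGR stacks fall from a mean of 1059 to 439.

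The genes around the 10 were described with 7 lists written from general knowledge, 109 genes in all, of which 97 were tested. Over these, 21 were higher, 39 were lower and 37 were not called, with a median log2 fold change of -0.17 against -0.0019 for all genes tested. Read against the background of 20.3% higher and 21.9% lower, the share higher was close to it and the share lower was above it. No test of the lists as such was made, and the lists were chosen with earlier results of these data known. Counts for the single lists follow in the order of the pathway.

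Upstream factors and kinases (22 genes, all tested) held 8 genes that were higher, 5 that were lower and 9 that were not called, with a median of -0.06. SRF, the serum response factor that binds CArG boxes, was measured at 1994 and 1832 in sh-NC and at 2118 and 2185 in sh-IRF1 (log2 fold change 0.17, adjusted p = 0.00688 from limma). MRTFA, an actin-controlled coactivator of SRF, was higher at a log2 change of 0.45, from 2687 and 2482 to 3596 and 3484. The call of SRF was lost without sh-NC replicate 2, at an adjusted p of 0.159, and without sh-IRF1 replicate 2, at 0.111, while that of MRTFA was kept with each library left out. MAP2K7, an activator of the JNK kinases that phosphorylate JUN, was higher at a log2 change of 0.29, and MAPK3, which encodes the kinase ERK1, was higher with 0.24. The call of MAPK3 was lost without sh-NC replicate 1, at a limma adjusted p of 0.0645, and without sh-IRF1 replicate 2, at 0.0508. ATF1, a CREB relative that binds cyclic AMP response elements, fell from 808 and 805 to 507 and 563 (log2 fold change -0.59, adjusted p = 1.23e-07 from limma). Both RPS6KA3, which encodes the kinase RSK2, and RPS6KA4, which encodes MSK2, were lower, with log2 fold changes of -0.63 and -0.29.

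Among the dimer partners of FOS and JUN proteins (13 listed, 11 tested) 2 genes were higher, 4 were lower and 5 were not called, with a median of -0.17. JDP2, a repressor that pairs with JUN proteins, had normalized counts of 973 and 867 in sh-NC and of 432 and 489 in sh-IRF1 (2.00-fold lower, limma adjusted p = 2.85e-13). BATF3, which pairs with JUN proteins and represses or redirects AP-1, was lower with a log2 fold change of -0.75, from 226 and 205 to 122 and 133. Both partners went down in libraries in which JUN was higher. ATF3, a stress-inducible partner of JUN, had 183 and 183 in sh-NC and 143 and 133 in sh-IRF1, which was at the threshold, with an adjusted p of 0.0497 from limma and of 0.0509 from edgeR. Leaving out any 1 of the 4 libraries ended the call of ATF3, with limma adjusted p-values from 0.0968 to 0.206. MAFG was higher at a log2 change of 0.41. The small MAF gene MAFK was lower with -0.19 (adjusted p = 0.0331 from limma), a call that was lost without sh-NC replicate 1 or either sh-IRF1 library, with adjusted p up to 0.222. ATF7 was higher with 0.47, with 42.8% of its exonic bases shared with other genes.

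The list of EGR family genes and NAB corepressors (5 listed, 4 tested) had none higher, 3 lower (EGR3, NAB2 and WT1) and 1 not called (NAB1), with a median of -0.52. Among other immediate early genes (37 listed, 32 tested) 5 were higher, 12 were lower and 15 were not called, with a median of -0.19. The lower ones with the smallest p were MYC, a driver of cell growth, at 51.2% of the control level (log2 fold change -0.97), BTG1, an antiproliferative gene (-1.15), and ZFP36L2, which encodes a protein that binds AU-rich messengers and speeds their decay (-0.47). The higher ones with the smallest p were KLF6, a zinc finger factor, at a log2 change of 0.72, PPP1R15A, the stress gene that reverses the phosphorylation of eIF2-alpha, with 0.49, and ID2, an inhibitor of helix-loop-helix factors, with 0.25. The call of ID2 was lost without sh-IRF1 replicate 2, at an adjusted p of 0.126. Genes of the same class were therefore found on both sides, as among the 10. Other annotated genes share 22.4% of the exonic bases of ZFP36L2 and 16.0% of those of BTG1.

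Genes for the turnover of AP-1 proteins and the decay of AU-rich messengers (8 listed, all tested) had none higher, 3 lower and 5 not called, with a median of -0.06. One of the lower ones was TNPO1 (log2 fold change -0.33), which is on the list but is an importin gene rather than one of turnover or decay. The others were ELAVL1, which encodes the messenger-stabilizing protein HuR (-0.30), and CNOT1, the scaffold of the deadenylase complex (-0.22). The remaining genes of that list, among them the ubiquitin ligase genes FBXW7, ITCH and COP1, were not called.

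Genes described in general knowledge as AP-1 targets went both ways. Of 15 listed and 12 tested, 5 were higher, 5 were lower and 2 were not called, with a median of -0.05. HMOX1, which encodes the heme-degrading enzyme, rose from 80.0 and 51.4 to 217 and 211 (log2 fold change 1.72, adjusted p = 1.28e-09 from limma). CXCL8, a neutrophil chemokine, rose from 95.4 and 85.3 to 255 and 281 (log2 fold change 1.56), and PLAU, which encodes urokinase, rose by a log2 fold change of 0.94, with 31.0% of its exonic bases shared with C10orf55. In the other direction MMP9, a matrix metalloproteinase, fell from 209 and 193 to 28.8 and 11.2 (log2 fold change -3.40, adjusted p = 2.08e-13 from limma), CCL2, a monocyte chemokine, from 751 and 763 to 255 and 229, and TNF from 1045 and 935 to 651 and 632. The log2 change of MMP9 was -2.76 without sh-IRF1 replicate 2 and -4.04 without sh-IRF1 replicate 1. Of the genes listed as classical EGR targets in monocytic cells (9 listed, 8 tested) 1 was higher and 7 were lower, with a median of -0.67. Over all genes tested 20.3% were higher and 21.9% lower, and this list was not tested as such. On the list of myeloid markers are also 2 of the 9, CD14 and CSF1R. TGFB1, a growth factor gene, was at 62.2% of the control level (log2 fold change -0.69), VEGFA at 53.0% (-0.91) and F3, which encodes tissue factor, at 63.9% (-0.65). Whether EGR1 or AP-1 occupied any of these genes was not measured in these libraries.

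**Figure D5:**
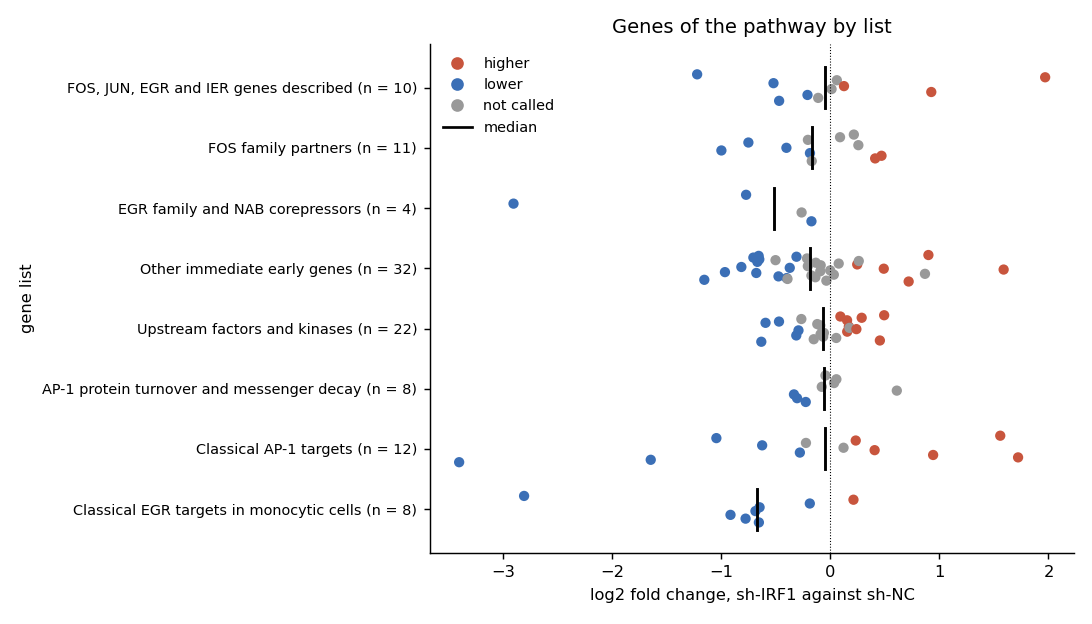
Log2 fold change, sh-IRF1 against sh-NC (x axis), of each gene tested in the 10 described genes and in the 7 lists around them, red for higher, blue for lower and grey for not called, with a black bar at the median of each list. The medians of the EGR family list, -0.52, and of the EGR target list, -0.67, lie farthest to the left, and the AP-1 target list spreads from -3.40 to 1.72 around a median of -0.05.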

How the data were processed

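RNA was sequenced from MV4-11 cells in 2 sh-NC and 2 sh-IRF1 libraries, grouped by their labels. The submitters' processing notes name HISAT2 2.0.5 and hg38. How reads were counted, on which annotation and with or without strand is not given in the sources used here. The values are a normalized signal that the authors deposited as reads per gene divided by 1 size factor per library, and the reads were recovered from them (100% of values within 0.01 of a whole read). The table held 0 other columns of per-sample values.

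Symbols were found for 23456 of 23622 identifiers. The main test was limma 3.58.1 (R 4.3.3, trend and robust settings) on log2(value + 1), which compresses changes at low counts, over the 14120 genes that reached 10 in 2 or more libraries, with Benjamini-Hochberg adjustment over all of them. Alternatives were edgeR 4.0.16 (quasi-likelihood, TMM) and DESeq2 1.42.0 on the recovered reads, TMM, library total and upper quartile scaling, other filters and pseudocounts, limma without the robust setting, a replicate block, and leaving out each library. The code was tested on simulated data. Exon lengths, positions and overlaps are from GENCODE 44, promoter windows from RefSeq (GRCh38.p14).

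The genes described and the lists around them were chosen with earlier results of these data known. Named were the 10 genes, IRF1, the relatives FOSL1, ATF3, EGR3, EGR4, IER5, IER5L, NAB1, NAB2 and SRF, and up to 3 called genes per list and direction, those with the smallest p. A gene that this rule would name is not reported here. FBXW7, ITCH and COP1, uncalled genes of their list, and the single marker genes were named after their values were seen. Markers were a myeloid list and a list of other cell types.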

Additional observations from a re-analysis of the deposited data

How the results depend on the processing

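Of the 10 immediate early genes, JUN, FOSB, EGR1, FOSL2 and IER2 kept their direction and their call under all 15 alternatives, and FOS stayed without a call under all of them. JUNB and JUND lost their calls without sh-NC replicate 1, at log2 fold changes of -0.11 and 0.064, with leave-one-out ranges from -0.31 to -0.11 and from 0.064 to 0.19. EGR2 and IER3, which were never called, changed direction, with leave-one-out ranges from -0.38 to 0.16 and from -0.11 to 0.13, including 0.02 and 0.16 for EGR2 and -0.11 and -0.02 for IER3. EGR2 was not tested with a filter of at least 50. With a log2 fold change beyond 0.5 also required, 1168 genes were higher and 1067 lower in place of 2861 and 3092, and 2 of the 10 genes were lower in place of 4. Leaving out each library in turn gave 2037 to 2685 genes higher and 2405 to 2744 lower, with 2 to 3 of the 10 genes higher and 3 to 4 lower. Replicate numbers did not pair the samples (correlation of deviations -0.0154), and a replicate block gave 2903 higher and 3147 lower and changed no call among the 10 genes. With the canonical transcript length the shares in sh-NC and sh-IRF1 were 58.7% and 62.8% for FOS, 3.83% and 7.45% for FOSB, 14.1% and 12.6% for FOSL1, 23.3% and 17.2% for FOSL2, and 0.961% and 3.48% for JUN, and that of JUND was 84.2% in sh-IRF1, in each case through the length alone. DESeq2 called 2312 genes higher and 2605 lower, and library total scaling 3433 and 2645. No scaling moved the median log2 fold change of all genes beyond 0.043. With 2 libraries per group the calls lean on limma's prior, with a median of 42.98 degrees of freedom, and a change of total RNA per cell could not be measured.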
